A study of Mus musculus with 9 samples.

Results

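The genes of 10 heat shock proteins and co-chaperones were followed through single-nucleus RNA sequencing (sNuc-seq) of mouse hearts: Hspa1a, Hspa1b, Hspa8, Hspb1, Hspb7, Hsp90aa1, Hsph1, Hspd1, Dnajb1 and Bag3. They were chosen by name, and the rows of these 10 genes were read out of the 23747 genes in each of the 9 tables. The readout of a gene was the number of its unique molecular identifiers (UMIs, 1 per captured transcript) summed over the nuclei of a cell type in 1 mouse, given as UMIs per 1000000 UMIs of that sum (CPM) after scaling between mice.

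The study asked how ischemia-reperfusion (I/R) and pretreatment with Shexiang Baoxin Pill (SBP, MUSKARDIA in the labels), a traditional Chinese medicine, change the cells of the mouse heart. All mice were C57BL/6, 8 weeks of age per the study's methods, and all were gavaged for 7 days, operated on under isoflurane and given penicillin afterwards. The 3 sham mice received vehicle (sodium carboxymethylcellulose) and an operation with the needle alone, in which no artery was tied. The 3 I/R mice received the same vehicle, then 30 min of ligation of the left anterior descending coronary artery and 24 h of reperfusion. The 3 SBP mice received the pill and then the same ligation and reperfusion. No group received the pill without I/R, and the tissue was taken from below the ligation. The mice are separate individuals, and each is 1 library.

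Heat shock proteins bind unfolded or partly folded proteins. The HSP70 proteins (Hspa1a and Hspa1b, which are stress-inducible, and Hspa8, which is made constitutively) work in cycles of ATP hydrolysis. Dnajb1, a J-domain protein, delivers substrates to them, and Hsph1 (HSP110) and Bag3 release the bound nucleotide. Hsp90aa1 is the inducible cytosolic HSP90. Hspd1 (HSP60) folds proteins in the mitochondrial matrix. Hspb1 (HSP27) and Hspb7 are small heat shock proteins, which hold substrates without ATP. Heat and other proteotoxic stress release the transcription factor HSF1, which binds heat shock elements, arrays of short inverted units, in the promoters of many of these genes. In heart muscle, Bag3 and small heat shock proteins are known for the upkeep of the sarcomere, and Bag3 and Hspb7 are abundant there.

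The promoter sequences show how unequally this known element is spread over the genes. RefSeq windows from 250 bases before to 50 bases after a start site (GRCm38.p6) were matched for 8 of the 10 genes, with 11 windows in all. A pair of facing units, GAANNTTC or TTCNNGAA on either strand (the letters of both motifs read the same on both strands, and 2 matches may overlap), was found in 7 of these 11 windows, which belong to 6 of the 8 genes. Of all 32851 windows, 15.1% held such a pair and 0.603% held 3 units in a row. The following 250 bases before the start are shown, 5′ to 3′, with the matches in capitals, for Hspa1b (chr17:34959239-34959488, minus strand), Hspb1 (chr5:135887669-135887918, plus strand) and Hspb7 (chr4:141420529-141420778, plus strand), because the text turns on their RNA and they hold 1, 2 and 0 matches.
Hspa1b: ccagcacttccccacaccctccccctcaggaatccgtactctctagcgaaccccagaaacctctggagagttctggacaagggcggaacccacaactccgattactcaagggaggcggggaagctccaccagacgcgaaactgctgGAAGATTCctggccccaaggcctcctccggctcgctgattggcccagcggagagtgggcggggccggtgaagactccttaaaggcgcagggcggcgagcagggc
Hspb1: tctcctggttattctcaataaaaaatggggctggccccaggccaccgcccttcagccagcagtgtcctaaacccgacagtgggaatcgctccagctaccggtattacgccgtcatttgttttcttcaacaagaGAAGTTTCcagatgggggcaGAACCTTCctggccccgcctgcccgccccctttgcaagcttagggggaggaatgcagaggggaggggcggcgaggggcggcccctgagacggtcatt
Hspb7: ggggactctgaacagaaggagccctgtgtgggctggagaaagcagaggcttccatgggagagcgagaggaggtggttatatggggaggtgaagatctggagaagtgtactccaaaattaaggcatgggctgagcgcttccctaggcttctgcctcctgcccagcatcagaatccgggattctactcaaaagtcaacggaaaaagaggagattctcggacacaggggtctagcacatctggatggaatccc

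The windows of Hspa1a and Hspa1b differed at 4 of 300 bases, 3 of them before the start, and both held their match at base -104. Chains of 3 or more facing units were found at Hspd1, from base -144 of its second window, and at Hsph1, just after its first start. They are shown as stretches of 30 bases on the minus strand, chr1:55088053-55088082 for Hspd1 and chr5:149636287-149636316 for Hsph1, with the chain in capitals.
Hspd1: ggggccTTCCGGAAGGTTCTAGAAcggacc
Hsph1: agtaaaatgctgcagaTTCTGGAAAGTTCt
The Bag3 window held 1 match, after its start. No match was found in the windows of Hspb7 and Dnajb1 or in the first window of Hspd1. A match is a match of letters and was not read as a bound site.

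By the GENCODE annotation of GRCm38, all 10 genes code for proteins. Hspa1a (chromosome 17, 34969190 to 34972156) and Hspa1b (chromosome 17, 34956436 to 34959238) each have a single exon, and 9951 bases separate them. Of the 50-base words of their transcripts, 58.8% (Hspa1a) and 62.3% (Hspa1b) occur in the other, but 0% of those in the last 500 bases, where 3′ libraries start. Both their separate values and their sum are given. Hspd1 overlaps Hspe1 on the other strand and Hspa1a overlaps Gm20481. Bag3 overlaps 2610306O10Rik on its own strand, and Hspa8 hosts the small RNA genes Snord14c, Snord14d and Snord14e. Reads of these overlaps could not be told apart here.

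The 9 libraries held 49171 nuclei, 4576 to 6418 per mouse, with 10329520 to 18205985 UMIs per mouse. Nuclei were grouped into 4 large cell types by clusters and marker genes: cardiomyocytes (10537 nuclei), endothelial cells (13452), fibroblasts (14146) and myeloid cells (9571). The chaperone genes were kept out of the genes that built the clusters. The smallest sums were those of myeloid cells, from 387 nuclei and 600186 UMIs in 1 sham mouse, in which a single UMI is worth 1.67 CPM. In all, 290 barcodes occurred in more than 1 library, at most 14 in any pair of libraries.

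In the clusters of cardiomyocytes, the nuclei of 1 library went against those of its own group. Cardiomyocytes formed a cluster led by Gm17428 and Mhrt and a cluster led by Fstl4, Gm12295 and Myh7. The first held 90.3% to 97.7% of sham cardiomyocytes, and the second 79.7% to 98.9% of those of the SBP group. I/R replicate 1 had 80.2% of its 1074 cardiomyocytes in the first, sham-dominated cluster, against 0 nuclei and 57 nuclei in the other I/R mice. Its summed CPM of 14 immediate early and handling genes in cardiomyocytes was 131, where the other I/R mice had 400 and 505. Its myeloid cells and fibroblasts lay with those of its group: it had 1737 nuclei in the Gpnmb-led myeloid cluster, which held at most 1.87% of a sham mouse's myeloid nuclei. Differences of I/R from sham that rest on it are given with and without it, and fold changes of SBP against I/R only with it. The I/R group was uneven in other ways too. Over all nuclei, I/R replicate 3 had a mean r of 0.968 with its own group and 0.971 with the others. A fibroblast cluster led by Tnc held 9.54% of its fibroblasts, against 34.2% and 30.4% in I/R replicates 1 and 2.

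**Figure D1:**
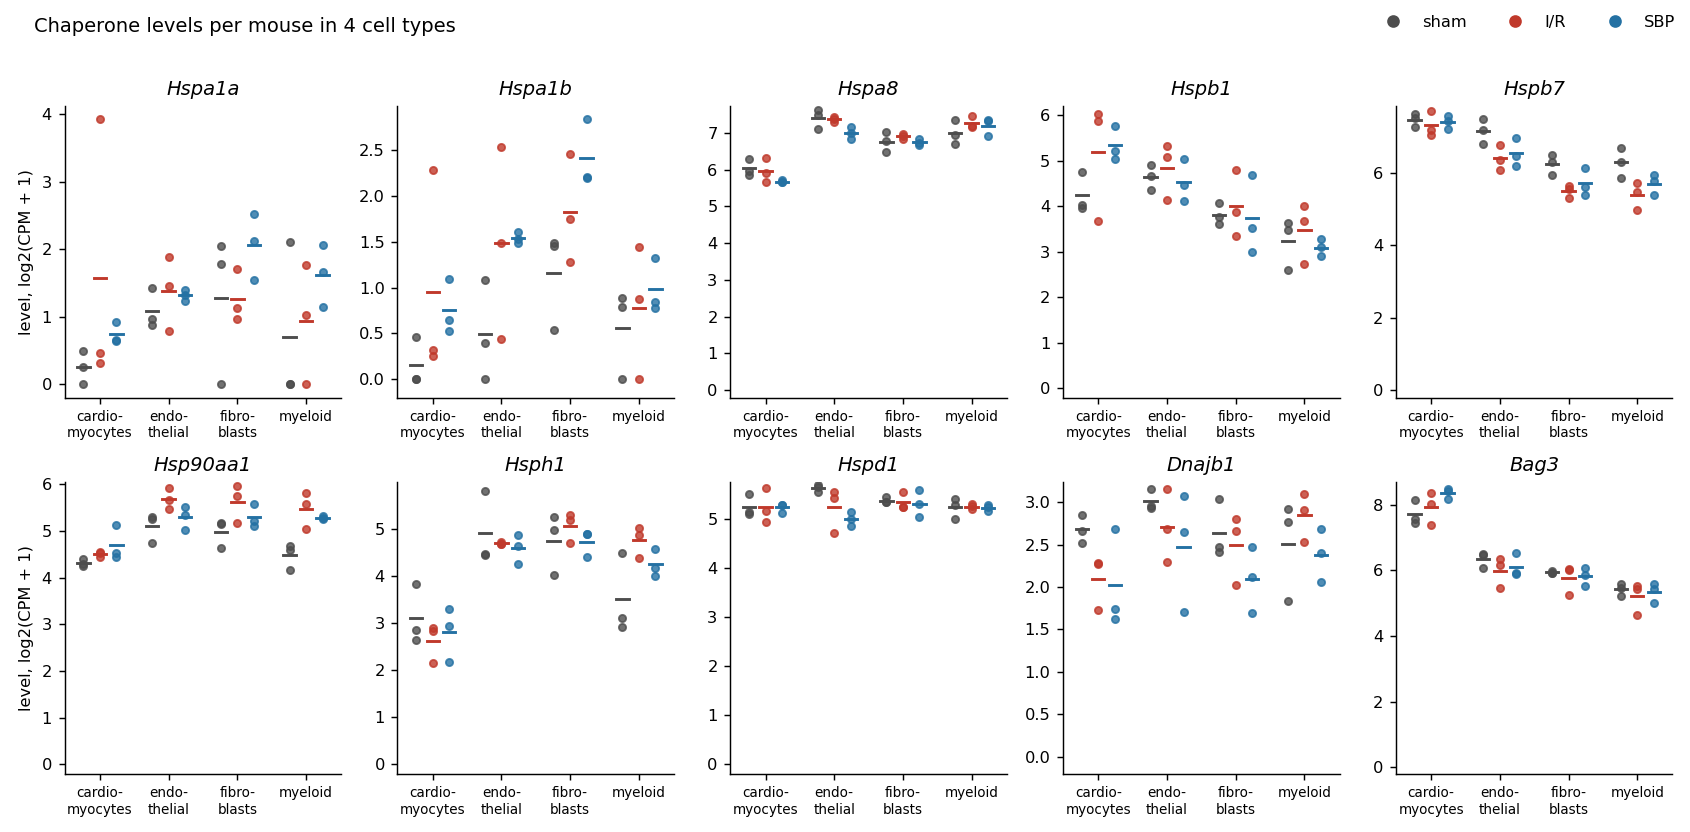
Level of each of the 10 genes, as log2(CPM + 1), in cardiomyocytes, endothelial cells, fibroblasts and myeloid cells. Every point is 1 mouse (3 per group) and the bars are group means, with each panel on its own scale. Bag3 and Hspb7 are highest in cardiomyocytes, and 1 I/R mouse lies far above all others for cardiomyocyte Hspa1a and Hspa1b and far below the other I/R mice for Hspb1.

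Cardiomyocytes held the most Bag3, the co-chaperone that links HSP70 to small heat shock proteins and autophagy. Over 9 mice its level was 264 ± 71.7 CPM (SD) in cardiomyocytes, 71.5 ± 15.8 in endothelial cells, 57.0 ± 9.13 in fibroblasts and, lowest, 39.9 ± 8.05 in myeloid cells, without scaling between mice. The step from cardiomyocytes to endothelial cells was 1.85 on the log2(CPM + 1) scale and was seen in 9 of 9 mice (exact sign-flip permutation test, two-sided, p = 0.003906, the smallest that 9 mice can give; adjusted p = 0.0146 over 30 tests). Both further steps down passed as well, by 0.31 in 8 of 9 mice (adjusted p = 0.0234, exact permutation) and by 0.52 in 9 of 9 mice (adjusted p = 0.0146, exact permutation). Bag3 was the only one of the 10 genes for which all 3 steps passed.

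Hspb7, the cardiovascular small heat shock protein, followed a like order. Its mean was 169 ± 27.8 CPM in cardiomyocytes, 108 ± 37.1 in endothelial cells, 58.0 ± 22.6 in myeloid cells and 57.2 ± 15.8 in fibroblasts (SD, n = 9 mice). Cardiomyocytes exceeded endothelial cells by 0.69 and endothelial cells exceeded fibroblasts by 0.88 on the log2 scale, each in 9 of 9 mice (adjusted p = 0.0146, exact permutation). Fibroblasts and myeloid cells differed by 0.02 and in 5 of 9 mice, less than the spread between mice.

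In CPM, a level relative to all UMIs of a type, Hspa8 was lowest in cardiomyocytes. This constitutive HSP70 stood at 154 ± 27.7 CPM in endothelial cells, 142 ± 21.4 in myeloid cells, 112 ± 14.4 in fibroblasts and 59.3 ± 12.3 in cardiomyocytes. Myeloid cells exceeded fibroblasts by 0.34 and fibroblasts exceeded cardiomyocytes by 0.91, each in 9 of 9 mice (adjusted p = 0.0146, exact permutation), and endothelial and myeloid cells did not differ beyond their spread (adjusted p = 0.475, exact permutation).

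Hsph1 was low in cardiomyocytes too, with 6.59 ± 2.87 CPM against 18.8 ± 8.13 in myeloid cells, 26.9 ± 11.1 in endothelial cells and 28.8 ± 7.80 in fibroblasts. The step from myeloid cells down to cardiomyocytes was 1.33 in 9 of 9 mice (adjusted p = 0.0146, exact permutation). The same step for Hsp90aa1 was 0.57 in 8 of 9 mice (adjusted p = 0.0234, exact permutation), from 34.4 ± 11.1 to 22.0 ± 4.11 CPM. Hspb1 had endothelial cells above fibroblasts by 0.82 in 9 of 9 mice and fibroblasts above myeloid cells by 0.58 in 7 of 9 mice (adjusted p = 0.0146 and 0.0426, exact permutation). Its step between cardiomyocytes and endothelial cells did not pass with the 3 groups pooled (adjusted p = 0.475, exact permutation). Scaled between mice, its mean was lower in cardiomyocytes in sham (18.6 against 24.2 CPM). It was higher there in I/R (44.5 against 29.5) and SBP mice (40.3 against 23.1).

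Hspd1 lay within 37.0 and 40.1 CPM in the means of the 4 types, and no step of it, of Dnajb1, of Hspa1a or of Hspa1b passed the test. In all, 11 of 30 steps passed. With types assigned to single nuclei by marker scores instead, 8 passed, 6 of them the same.

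The share of nuclei with a UMI was compared at equal depth, since cardiomyocyte nuclei held a median of 4431 UMIs, against 1724 in myeloid cells, 1786 in fibroblasts and 1277 in endothelial cells. After thinning to 1000 UMIs, 18.3% ± 3.01 (SD, n = 3 mice) of sham cardiomyocytes had a Bag3 UMI, compared with 7.60% ± 0.775 of endothelial cells, 5.47% ± 0.307 of fibroblasts and 4.10% ± 0.853 of myeloid cells. Without thinning these shares were 54.1%, 10.8%, 9.40% and 6.50%. Thinning left out 3 of 4240 sham cardiomyocytes and 1562 of 4797 sham endothelial nuclei as too shallow. For Hsph1 the thinned share in sham cardiomyocytes was 0.832% ± 0.193, below the 2.57% ± 1.02 of fibroblasts. Cardiomyocytes had the highest share for 4 of the 10 genes when thinned and for 7 when not, and other genes were not counted. For Hspa8 and Hsp90aa1, cardiomyocytes had the lowest mean share over the groups when thinned (7.18% and 2.31%). Without thinning, cardiomyocytes had the highest (24.6% and 10.9%).

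Free RNA of cardiomyocytes can put UMIs into droplets of other cells. For comparison, 8 cardiomyocyte markers were read (Ttn, Myh6, Tnnt2, Ryr2, Pln, Actn2, Myl2 and Tnni3). In sham mice these markers summed to 48340 to 56780 CPM in cardiomyocytes, 9345 to 11960 in endothelial cells, 7552 to 8791 in myeloid cells and 5802 to 7275 in fibroblasts. Per 1000 marker UMIs, sham cardiomyocytes held 3.44 ± 0.461 Hspb7 UMIs, while endothelial cells held 13.1 ± 1.54, fibroblasts 11.6 ± 2.45 and myeloid cells 9.98 ± 3.33 (SD, n = 3). For Bag3 the same ratios were 4.21 ± 1.33 in cardiomyocytes, 7.60 ± 1.79, 9.30 ± 1.00 and 5.27 ± 0.932. The ratios of both genes were higher in each of the other types than in cardiomyocytes, on average. The ratio in free RNA itself was not measured, and the origin of these UMIs was not tested.

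Between I/R and sham, none of the 10 genes was called in cardiomyocytes. I/R was compared with sham by limma across all genes tested. Called genes had an absolute log2 fold change over 0.25 and an adjusted p (Benjamini-Hochberg) no higher than 0.05, both taken from the methods of the study. Of the 10 genes, 8 passed the filter on low values in cardiomyocytes and 0 were called, where 0.822% of all 12902 genes tested were called. None of the 8 reached an unadjusted p of 0.05 either, where 14.2% of all genes did. Hspa1a and Hspa1b were below the filter.

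The call of Hspb1 in cardiomyocytes turned on 1 library. Its level was 15.3, 14.6 and 25.9 CPM in the sham mice, 11.9, 57.3 and 64.4 in the I/R mice and 53.0, 31.9 and 36.1 in the SBP mice. I/R replicate 1 was below every sham mouse, while the other I/R mice were more than 2 times the highest sham mouse. The log2 fold change of I/R against sham was 0.95 (SE 0.53, adjusted p = 0.455). Without I/R replicate 1 it was 1.70 (adjusted p = 0.00724), and Hspb1 was called, as the genes called among all went from 106 to 812. Over all nuclei it was 0.38 (adjusted p = 0.641) with all mice and 1.01 (adjusted p = 0.0484), a call, without this mouse.

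Levels were also read within each cardiomyocyte cluster. In the Fstl4/Myh7-led cluster, Hspb1 was 23.0 ± 5.80 CPM in sham, 51.0 ± 22.5 in I/R mice and 41.2 ± 7.77 in SBP mice (SD, n = 3). In the Gm17428/Mhrt-led cluster it was 18.4 ± 5.74 in sham mice. With cardiomyocytes limited to the Fstl4/Myh7-led cluster, a limit chosen after the data were seen, the difference of I/R from sham was 1.22 for Hspb1 (adjusted p = 0.169) and 0.42 for Bag3 (adjusted p = 0.437), and neither was called. The sham mice had only 91, 33 and 145 nuclei in this cluster, so this limit could miss a change.

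**Figure D2:**
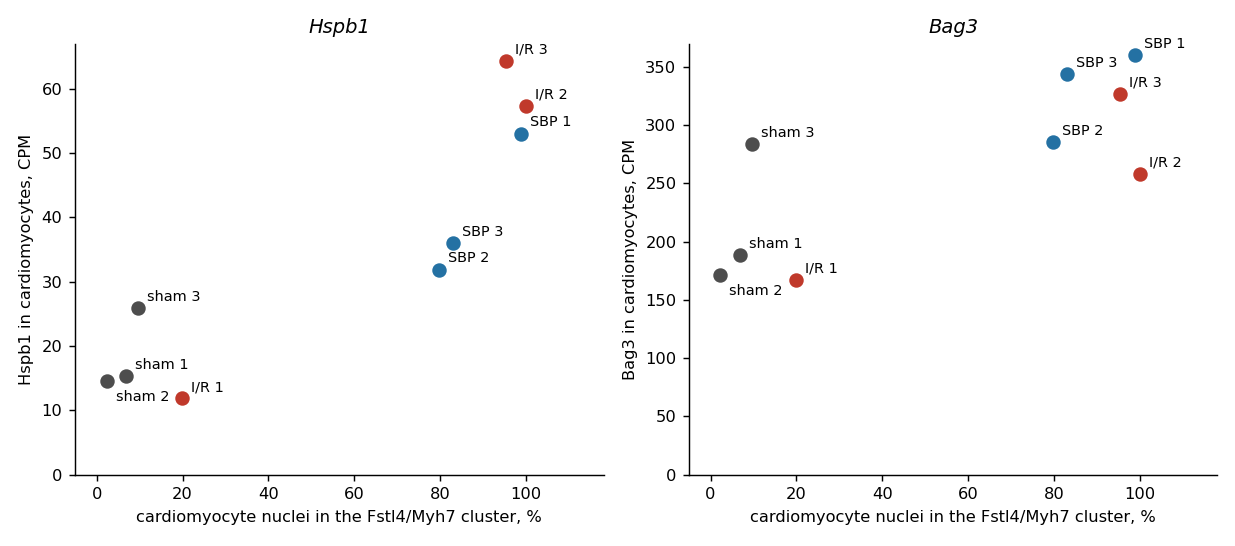
Hspb1 (left) and Bag3 (right) in cardiomyocytes, in CPM, against the percentage of a mouse's cardiomyocyte nuclei in the Fstl4/Myh7-led cluster, 1 point per mouse. I/R 1 lies nearer to the sham mice than to its group, at 11.9 CPM of Hspb1 and 19.8% of nuclei in the cluster, and the other I/R mice lie at 57.3 and 64.4 CPM.

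Bag3 in cardiomyocytes was 188, 171 and 284 CPM in sham, 167, 258 and 327 in I/R mice and 360, 285 and 343 in SBP mice. The SBP mice all lay above the sham mice, though the lowest of them (285) was next to the highest sham mouse (284). Of all genes tested there, 23.3% did not overlap between SBP and sham mice. I/R against sham gave a log2 fold change of 0.21 (SE 0.26, adjusted p = 0.754) and SBP against sham 0.65 (SE 0.26, unadjusted p = 0.0295, adjusted p = 0.314). Neither was called. Without I/R replicate 1 the first was 0.47 (adjusted p = 0.254).

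Hspb7 in cardiomyocytes was 180, 152 and 196 CPM in sham mice and 131, 208 and 144 in I/R mice, with overlapping groups and a log2 fold change of -0.15 (95% interval -0.59 to 0.29). Without I/R replicate 1 it was -0.02 (adjusted p = 0.973). Hspa8 (log2 fold change -0.07, interval -0.48 to 0.34) and Hspd1 (0.00, interval -0.43 to 0.43) had intervals that stayed within 0.5 on either side, and without that mouse they were at 0.08 and 0.15. Dnajb1 was 6.23, 5.34 and 4.75 CPM in sham and 2.31, 3.81 and 3.89 in I/R mice. These 2 groups did not overlap, as for 16.4% of all genes tested there. The difference was -0.59 (SE 0.31, adjusted p = 0.418), short of a call (-0.40 without I/R replicate 1).

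Hspa1a and Hspa1b, the inducible pair, were rare in every type. Their summed UMIs over all nuclei were 60 in the 3 sham mice, 224 in the 3 I/R mice and 162 in the 3 SBP mice. The I/R mice held 152, 55 and 17 of them, and 110 of the 152 lay in 1 nucleus. Without this nucleus the I/R total was 114, below that of the SBP mice, and without I/R replicate 1 it was 72. Over all nuclei neither was called, with log2 fold changes for Hspa1b of 0.67 in I/R against sham (adjusted p = 0.161; 0.49 without I/R replicate 1, and 1.06 and called without I/R replicate 3, adjusted p = 0.0107) and 0.90 in SBP against sham (adjusted p = 0.109). No sham mouse reached the filter's level for Hspa1b over all nuclei. It was thus tested only through I/R and SBP mice, where it was higher, and these tests lend no support to a difference. In cardiomyocytes, I/R replicate 1 held 14.2 CPM of Hspa1a and no other mouse more than 0.882. A single nucleus of this mouse held 89 Hspa1a and 21 Hspa1b UMIs among its 1275. It supplied 89 of the 96 Hspa1a UMIs of I/R cardiomyocytes, and the next richest nucleus of the whole series held 9 UMIs of the pair. The same nucleus held 11 Hsp90aa1, 2 Hsph1 and 1 Hspd1 UMIs, so that 9.73% of its UMIs came from the 10 genes. Its doublet score was 0.0747 and it was not among the marked nuclei, from a caller that was taken not to have worked.

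In fibroblasts both genes passed the filter. Hspa1b was 0.449, 1.80 and 1.74 CPM in sham mice, 2.37, 4.50 and 1.43 in I/R mice and 6.17, 3.58 and 3.61 in SBP mice. The SBP mice were all above the sham mice, with 22, 15 and 14 UMIs against 1, 5 and 5. In fibroblasts 27.1% of all genes did not overlap between SBP and sham mice. The log2 fold change of SBP against sham was 1.25 (SE 0.41, unadjusted p = 0.00953, adjusted p = 0.101) and was not called. No sham mouse reached the filter's level for Hspa1b in fibroblasts. The gene was thus tested there only through mice of the other groups, where it was higher, and the test lends no support to a difference. Hspa1a in fibroblasts was 3.14, 0 and 2.44 CPM in sham, 1.18, 2.25 and 0.955 in I/R and 4.76, 1.91 and 3.35 in SBP mice, which overlap.

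Hspb7 fell after I/R in fibroblasts and myeloid cells, calls that were lost without any of several single mice. In fibroblasts it was 60.2, 77.5 and 88.5 CPM in sham, 38.8, 48.4 and 46.1 in I/R and 69.8, 47.8 and 41.2 in SBP mice. Every I/R mouse was below every sham mouse, and the log2 fold change was -0.74 (SE 0.21, adjusted p = 0.0424). It was 1 of 10 genes called in fibroblasts, where 11.6% of all 13082 genes tested were called. The call was lost in 12 of 24 alternatives in processing or mice. In myeloid cells Hspb7 was 57.5, 78.3 and 103 CPM in sham, 30.2, 43.3 and 52.0 in I/R and 60.8, 53.8 and 40.9 in SBP mice. Sham and I/R again did not overlap, as for 35.2% of all genes there. The log2 fold change was -0.90 (SE 0.26, adjusted p = 0.0282), and the call was lost in 7 of 24 alternatives.

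In endothelial cells, 0 of 8 genes tested were called, where 3.19% of all 12218 genes were. Hspb7 there was 111, 143 and 177 CPM in sham and 67.1, 80.0 and 109 in I/R mice. These groups did not overlap, as for 20.4% of all genes, and its log2 fold change was -0.75 (SE 0.24, adjusted p = 0.120). It and Hsp90aa1 were the 2 of the 8 that reached an unadjusted p under 0.05, as did 17.6% of all genes.

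Over all nuclei, Hspb7 fell by 0.69 on the log2 scale (SE 0.19, adjusted p = 0.0464), from 138, 135 and 180 CPM in sham to 69.3, 109 and 104 in I/R mice. It was 1 of 10 genes called, where 11.4% of all 16044 genes were. Cardiomyocytes gave 24.1% to 29.1% of the nuclei of sham mice and 16.8% to 22.0% of those of I/R mice. Their share of UMIs was 47.3% to 57.8% in sham and 35.6% to 45.8% in I/R mice. This sum mixes the share of cardiomyocytes with the level within each cell type, and the part of each was not tested.

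The cardiomyocyte markers moved with Hspb7 in the other cell types. The summed level of these markers went from 5802 to 7275 CPM in sham fibroblasts to 1833 to 2870 in I/R fibroblasts, from 7552 to 8791 to 2016 to 3457 in myeloid cells and from 9345 to 11960 to 3450 to 6112 in endothelial cells. Of the 8 markers, 8 were called lower in fibroblasts, 8 in myeloid cells, 7 in endothelial cells, 4 over all nuclei and 0 in cardiomyocytes. Per 1000 marker UMIs, Hspb7 was at 19.3 ± 6.84 in I/R fibroblasts, 15.1 ± 5.37 in I/R myeloid cells and 18.0 ± 4.57 in I/R endothelial cells, where the sham means were 11.6, 9.98 and 13.1. The part of the markers in the lower Hspb7 was not tested. None of the 8 markers is at 0 in any of these types. Without I/R replicate 1, Hspb7 was no longer called in fibroblasts (-0.63, adjusted p = 0.112), myeloid cells (-0.66, adjusted p = 0.0952) or all nuclei (-0.49, adjusted p = 0.0883). Leaving out other single mice also ended the call: in fibroblasts sham replicate 2 or 3, I/R replicate 2 or 3 or SBP replicate 2, and in myeloid cells sham replicate 2 or 3 or I/R replicate 2. The call over all nuclei was lost without any 1 of the 9 mice except I/R replicate 3.

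**Figure D3:**
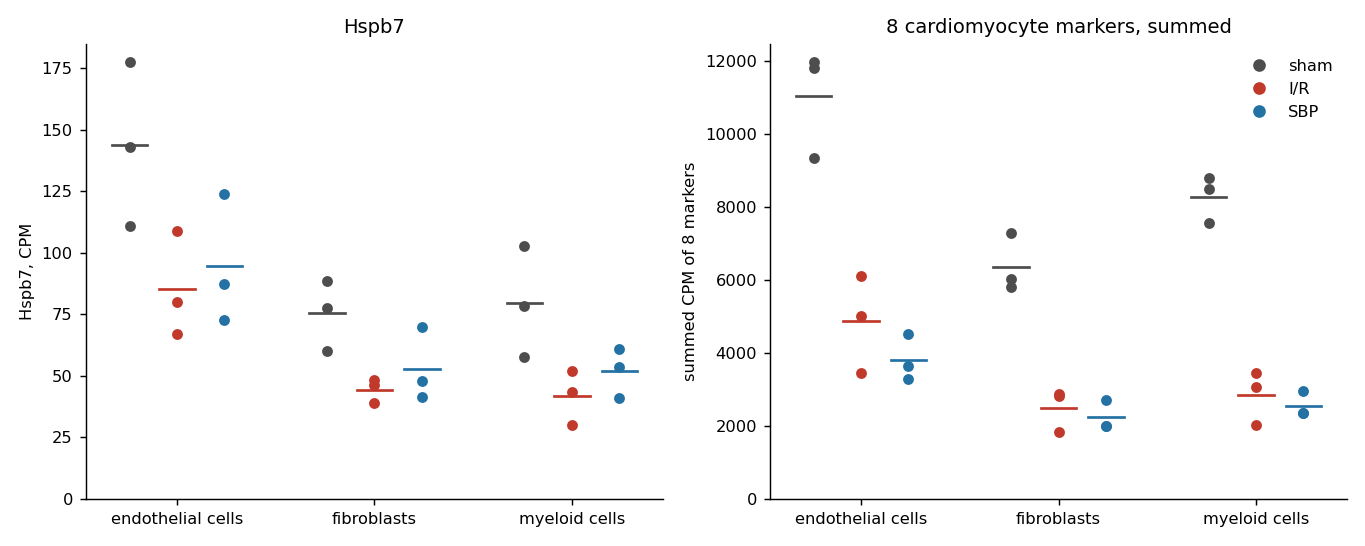
Hspb7 (left, CPM scaled between mice) and the summed CPM of 8 cardiomyocyte markers (right) in endothelial cells, fibroblasts and myeloid cells, 1 point per mouse with group means as bars. Both are lower in every I/R mouse than in every sham mouse, for example 38.8 to 48.4 against 60.2 to 88.5 CPM of Hspb7 in fibroblasts.

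In myeloid cells, Hsp90aa1 and Hsph1 rose after I/R. Hsp90aa1 was 23.0, 17.0 and 24.6 CPM in sham, 46.7, 54.9 and 32.1 in I/R and 38.7, 38.1 and 37.3 in SBP mice. Each I/R and SBP mouse was above each sham mouse, where 35.2% (I/R) and 34.2% (SBP) of all genes did not overlap with sham. I/R against sham gave a log2 fold change of 1.00 (SE 0.23, adjusted p = 0.0112). Hsph1, the exchange factor, was 21.3, 7.66 and 6.51 CPM in sham, 19.999, 31.6 and 28.2 in I/R mice and 14.999, 16.9 and 22.9 in SBP mice. The sham values rest on 31 UMIs in all, 9 to 13 per mouse, and those of the I/R mice on 253. Sham replicate 1 lay within the I/R range, so the groups overlapped, and the log2 fold change was 1.26 (SE 0.38, adjusted p = 0.0365).

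With Hspb7, these made 3 of 7 genes called in myeloid cells, where 17.6% of all 10913 genes tested were called. Hspa1a, Hspa1b and Dnajb1 were below the filter there. The call of Hsp90aa1 remained when any 1 mouse was left out. That of Hsph1 was lost without sham replicate 2 (adjusted p = 0.109) or 3 (0.122), I/R replicate 2 (0.115) or 3 (0.0785) or SBP replicate 2 (0.0522).

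The myeloid cells of the groups fell into different clusters. A cluster led by Cd163 held 93.6% to 95.4% of sham myeloid nuclei, and a cluster led by Gpnmb held 43.8% to 75.3% of those of I/R mice. Within the Cd163-led cluster Hsp90aa1 was 22.1 ± 4.75 CPM in sham, 40.6 ± 14.4 in I/R mice and 24.7 ± 3.62 in SBP mice, and Hsph1 was 12.0 ± 10.4, 18.1 ± 2.88 and 9.63 ± 4.42 (SD, n = 3). In the Gpnmb-led cluster, which had too few sham nuclei for a level, Hsp90aa1 was 45.6 ± 11.4 in I/R mice and 46.7 ± 7.24 in SBP mice. With myeloid cells limited to the Cd163-led cluster, a limit chosen after the data were seen, the log2 fold change of I/R against sham was 0.83 for Hsp90aa1 (adjusted p = 0.187) and 0.84 for Hsph1 (adjusted p = 0.474), and neither was called. Among all genes, those called went from 1917 to 173 with this limit, so a lost call need not mean a lost difference.

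Other signals moved with these genes in myeloid cells. Summed neutrophil markers were 97.1 to 127 CPM in sham mice, 391.5 to 873 in I/R mice and 260 to 317 in SBP mice. Summed T cell markers were 13.6 to 32.1 CPM in sham, 86.2 to 138.5 in I/R and 77.1 to 226 in SBP mice. Summed B cell markers were 622 to 708 CPM in sham, 48.9 to 150.2 in I/R and 169 to 406 in SBP mice, and the cardiomyocyte markers were lower too, as given above. In sham and I/R mice, cytosolic ribosomal protein genes summed to 5018 to 6541 and 7097 to 8301 CPM, and the 14 immediate early and handling genes to 299.6 to 452 and 525 to 1582 CPM. Their part in the difference was not tested.

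In the other types Hsp90aa1 was not called. In endothelial cells it was 37.1, 38.4 and 25.8 CPM in sham and 59.9, 49.6 and 43.4 in I/R mice. The groups did not overlap there, as for 20.4% of all genes (log2 fold change 0.59, SE 0.20, adjusted p = 0.144). In fibroblasts it was 34.6, 23.8 and 35.2 in sham and 61.0, 53.1 and 34.8 in I/R mice (0.64, SE 0.23, adjusted p = 0.105), and without I/R replicate 3 it was called (0.88, adjusted p = 0.0197). The fibroblasts of the Tnc-led cluster, which were at most 0.253% of a sham mouse's fibroblasts and 9.54% to 34.2% of an I/R mouse's, held 71.9 ± 14.4 CPM of Hsp90aa1 in I/R mice, against 38.5 ± 8.55 in the larger Lvrn-led cluster of the same mice (SD, n = 3).

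**Figure D4:**
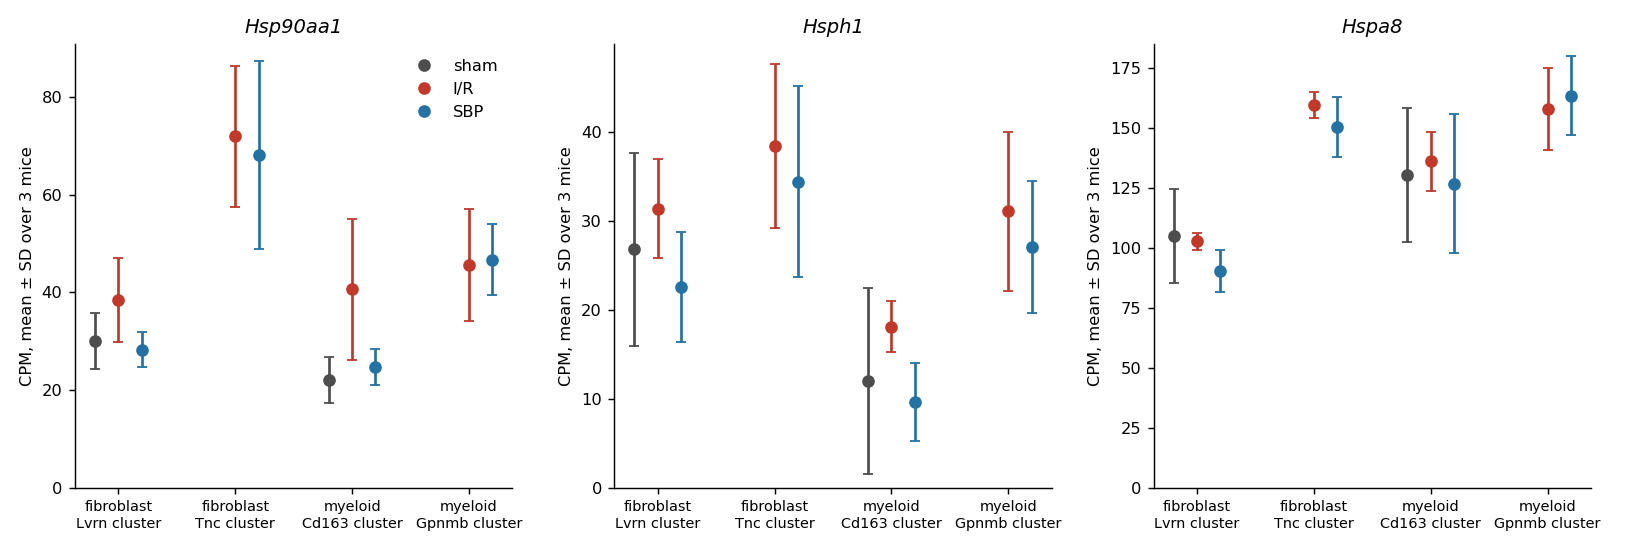
Hsp90aa1, Hsph1 and Hspa8 in 2 fibroblast and 2 myeloid clusters, in CPM, as mean and SD over 3 mice per group. Sham mice had under 20 nuclei each in the Tnc-led and Gpnmb-led clusters and have no point there. In I/R mice, Hsp90aa1 is 71.9 CPM in the Tnc-led and 38.5 CPM in the Lvrn-led fibroblasts.

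Hspa8, Hspb1, Hspd1, Dnajb1 and Bag3 were not called between I/R and sham in any of the 3 other types, as far as they were tested. Hspa8 in endothelial cells was 197, 136 and 179 CPM in sham mice and 157, 164 and 172 in I/R mice, and the I/R mice lay inside the sham range. In myeloid cells it was 161, 102 and 121 CPM in sham mice and 144, 176 and 141 in I/R mice (log2 fold change 0.28, interval -0.13 to 0.70). Hspb1 in endothelial cells was 24.2, 19.3 and 29.1 CPM in sham mice and 16.7, 39.1 and 32.6 in I/R mice, where I/R replicate 1 again was the lowest of its group. It was also the lowest I/R mouse for Hspb1 in fibroblasts (9.22 CPM, against 26.7 and 13.6) and in myeloid cells (5.62, against 15.1 and 11.7). The Hspb1 differences were 0.21, 0.19 and 0.23 on the log2 scale in endothelial cells, fibroblasts and myeloid cells, and 0.56, 0.53 and 0.62 without this mouse (adjusted p = 0.296, 0.528 and 0.313).

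Bag3 had the same library at the bottom. In endothelial cells it was 87.1, 66.9 and 90.1 CPM in sham mice and 42.8, 70.0 and 80.4 in I/R mice (log2 fold change -0.37, interval -0.91 to 0.17). In fibroblasts I/R replicate 1 had 36.9 CPM and the other I/R mice 64.4 and 63.0, next to 58.9 to 62.4 in sham mice. In myeloid cells it had 24.2 CPM, the others 42.6 and 44.6, next to 36.1 to 47.0 in sham mice. Without it the Bag3 differences were -0.10, 0.09 and 0.09 on the log2 scale in the same order of types.

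Hspd1, the matrix chaperonin, differed little between groups in fibroblasts and myeloid cells, with log2 fold changes of -0.02 (interval -0.40 to 0.36) and 0.01 (-0.38 to 0.41). Dnajb1 had few UMIs. In endothelial cells it was 6.74, 7.93 and 6.65 CPM in sham mice and 5.40, 3.91 and 7.89 in I/R mice, which overlapped (log2 fold change -0.31, interval -1.11 to 0.50).

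Whether I/R moved a gene differently in cardiomyocytes was tested on the difference between the cell types within each mouse. Hsph1 differed between cardiomyocytes and myeloid cells: its I/R effect was -0.48 in cardiomyocytes and 1.26 in myeloid cells, and the effect in cardiomyocytes minus that in myeloid cells was -1.74 (SE 0.39, adjusted p = 0.0153). It was 1 of 7 genes called in this test, where 8.34% of all 10259 genes were. Leaving out sham replicate 3 (-1.59, adjusted p = 0.0588) or I/R replicate 2 (-1.36, adjusted p = 0.0713) ended the call. At an unadjusted p under 0.05 stood 4 of the 7, Hspb7, Hsp90aa1, Hsph1 and Bag3, where 24.5% of all genes did. Against fibroblasts 0 of 8 genes differed, where 4.08% of genes did, and 2 of the 8, Hspb7 and Hsph1, reached an unadjusted p under 0.05, where 19.7% of all genes did. Against endothelial cells 0 of 8 differed, where 0.0792% of genes did, and 2 of the 8, against 11.9% of all genes, reached an unadjusted p under 0.05, Bag3 (0.58, SE 0.19, unadjusted p = 0.00845) and Hspb1 (0.74, SE 0.31, unadjusted p = 0.0340).

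No gene of the 10 was called between SBP and I/R in limma's test. The share called was 0% of all genes tested in cardiomyocytes, endothelial cells, fibroblasts, myeloid cells and all nuclei alike, and of the 10 genes 0, 1, 0, 0 and 0 reached an unadjusted p under 0.05, where 2.11%, 5.12%, 3.58%, 3.88% and 4.48% of all genes did. The one was Hspa8 in endothelial cells, with 157, 164 and 172 CPM in I/R mice and 126, 142 and 112 in SBP mice. These did not overlap, as for 9.54% of all genes, and the log2 fold change was -0.38 (SE 0.15, 95% interval -0.71 to -0.04, adjusted p = 0.956).

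The intervals show what the 3 mice per group could have seen. In cardiomyocytes, SBP against I/R was 0.44 for Bag3 (interval -0.13 to 1.01), 0.14 for Hspb1 (-1.05 to 1.33) and 0.10 for Hspb7 (-0.34 to 0.54). These fits hold I/R replicate 1, the lowest I/R mouse for Bag3 (167 CPM) and Hspb1 (11.9). Without it, Hspb1 differed from sham by 1.70 in I/R mice and by 1.09 in SBP mice, so the order of these groups turned. The intervals are not given without this mouse. In myeloid cells, SBP against I/R was -0.19 for Hsp90aa1 (-0.69 to 0.31) and -0.51 for Hsph1 (-1.33 to 0.30). Differences of 2-fold in Hspb1 thus lie within its interval with all mice in the fit, and a 2-fold difference in Hspb7 does not.

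**Figure D5:**
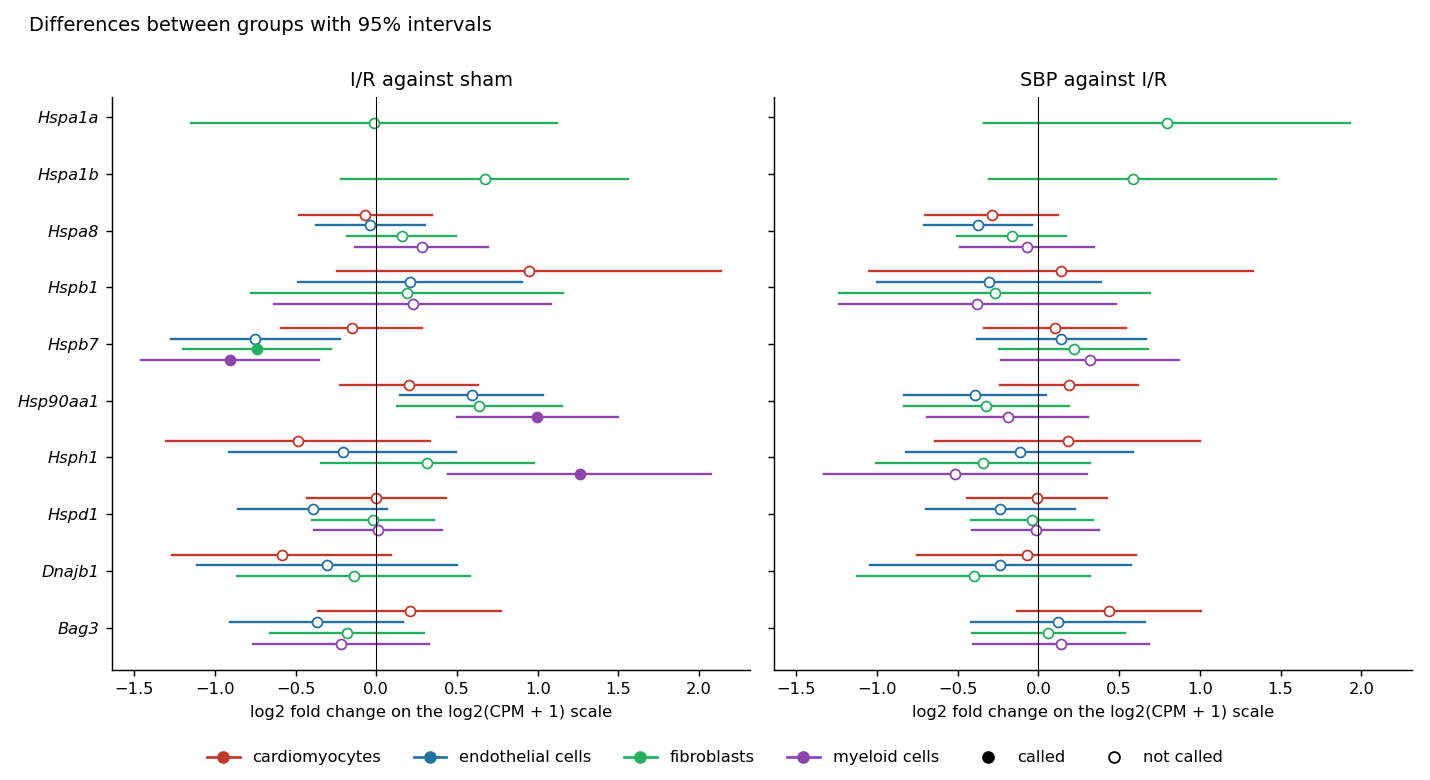
Log2 fold change with its 95% interval for I/R against sham (left) and SBP against I/R (right), for every gene that passed the filter in a cell type. Filled points were called at an adjusted p of at most 0.05: Hspb7 in fibroblasts (-0.74) and myeloid cells (-0.90), and Hsp90aa1 (1.00) and Hsph1 (1.26) in myeloid cells. No point is filled on the right.

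Against sham, SBP mice showed the higher Hsp90aa1 in myeloid cells as well, by 0.81 (SE 0.23, adjusted p = 0.0373), the sham mice being the same as in the comparison above. It was 1 of 7 genes called there, where 12.6% of all genes were. The call was lost on leaving out any 1 sham or SBP mouse, with adjusted p from 0.0547 to 0.119. In the Cd163-led cluster alone the difference was 0.18 (adjusted p = 0.865), where 159 of all genes were called, against 1379 with all myeloid cells. In the other units 0 of the genes tested were called, against 0.140% of all genes in cardiomyocytes, 2.19% in endothelial cells, 6.08% in fibroblasts and 3.35% over all nuclei, and the members at an unadjusted p under 0.05 numbered 1, 3, 2 and 3, where 13.4%, 15.4%, 19.8% and 22.1% of all genes reached it.

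Those in endothelial cells were Hspa8 (log2 fold change -0.41, adjusted p = 0.210), Hspb7 (-0.61, adjusted p = 0.245) and Hspd1. Hspd1 was at 51.1, 49.1 and 45.7 CPM in sham, 42.3, 25.2 and 46.3 in I/R and 31.2, 34.4 and 27.9 in SBP mice. The SBP mice lay below the sham mice without overlap, where 24.1% of all genes did not overlap (log2 fold change -0.63, SE 0.21, adjusted p = 0.166). In cardiomyocytes Hspb1 was called in SBP against sham once I/R replicate 1 was left out of the shared estimate of the spread (1.09, adjusted p = 0.0460; 0.410 with it). The genes called among all went from 18 to 281 at this setting.

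Around the 10 genes, 9 lists of other chaperones were counted for I/R against sham. In myeloid cells, 7 of 15 endoplasmic reticulum chaperone genes were called higher and 0 lower, with a median log2 fold change of 0.85 where all genes had 0.07 and 1067 of all 10913 genes were called higher. Among them were Creld2 (2.21), Pdia4 (1.90), Calr (1.24) and Pdia6 (1.09), with adjusted p from 0.00279 to 0.0128. Calr is a calcium-binding chaperone, and Pdia4 and Pdia6 form disulfide bonds. In fibroblasts 1 of 14 was called, below the 11.6% of all genes: Hspa5 (BiP), higher by 1.04 (adjusted p = 0.0368). In cardiomyocytes and endothelial cells 0 of 14 were called. The median of this list was 0.50 in fibroblasts, 0.31 in endothelial cells and 0.21 in cardiomyocytes. All genes had medians of -0.01, -0.02 and -0.03 there. In fibroblasts 5 of the 14 reached an unadjusted p under 0.05 in limma, where 25.5% of all genes did.

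Of the other small heat shock proteins, 1 of 5 tested was called lower in fibroblasts, 1 of 5 in endothelial cells, 2 of 4 in myeloid cells and 0 of 6 in cardiomyocytes. Of all genes tested, 674 of 13082, 167 of 12218, 850 of 10913 and 21 of 12902 were called lower in these types. Cryab, the αB-crystallin of muscle, had log2 fold changes of -1.05 in fibroblasts, -0.95 in endothelial cells and -0.87 in myeloid cells (adjusted p = 0.00291, 0.0311 and 0.00986), and Hspb8 one of -1.45 in myeloid cells (adjusted p = 0.0131). Of the list of BAG and exchange factors, 1 of 8 tested was called in myeloid cells, 1 of 10 in endothelial cells, 1 of 10 in fibroblasts and 0 of 10 in cardiomyocytes. The one was Synpo2, a partner of Bag3 in muscle, which fell by 2.08, by 1.39 and by 0.99 in the first 3 of these types (adjusted p = 0.000115, 0.00356 and 0.000903). The cardiomyocyte markers named above fell in these types as well.

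Of the 11 HSP90 co-chaperone genes, Fkbp4, an immunophilin of the steroid receptor complex, had log2 fold changes of -0.93 in fibroblasts and -1.06 in myeloid cells (adjusted p = 0.0206 and 0.0376), and no other was called in the 4 types. Of the 12 genes of the chaperonin TRiC and prefoldin, which fold actin and tubulin, Cct2 (0.84) and Cct8 (0.73) were called higher in myeloid cells, 2 of 12 where 17.6% of all genes were called. Of the J-domain list, Dnaja4 was lower in myeloid cells (-1.37), as 1 of 11 tested. It passed the filter there only through the sham mice, where it was high. Of the other HSP70 and HSP110 genes, Hspa14 was higher (0.54) and Hspa12a lower (-0.65) in fibroblasts, 2 of 6 tested where 11.6% of all genes were called. Of the heat shock factors, whose median was 0.14 in cardiomyocytes, and of the mitochondrial chaperones, 0 were called in the 4 types. No gene of these lists was called between SBP and I/R.

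Genes whose levels ran most like those of the 10 were sought over 36 sums (9 mice in 4 types) among 10100 genes. Bag3 was most like Tacc2 (Pearson r = 0.978) and Ube2b (0.960), Hspb7 like Fam174b (0.938) and Idh2 (0.930), and Hspa8 like H2-D1 (0.937) and Degs1 (0.935). For Hsp90aa1 the nearest were Mmp14 (0.882) and P4hb (0.873), for Hsph1 Gcn1 (0.881) and Sae1 (0.870), and for Hspb1 Clu (0.829) and Zfp697 (0.825). The other genes had weaker partners, from 0.741 (Hspa1b and Tnc) to 0.538 (Hspa1a and Xpnpep1), with Dnajb1 nearest to Ints14 (0.699) and Hspd1 to Hmgcs1 (0.641). The 36 sums share mice and libraries, and these r describe likeness across cell types and mice together.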

How the data were processed

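Nuclei of 9 mouse hearts were sequenced by droplet sNuc-seq. Per the submitters' processing notes, Cell Ranger 4.0 (with STAR, GRCm38) and Seurat 3.2.0 were used. The study's methods name later versions of Cell Ranger and Seurat, and which made these files is not given. Per the same methods nuclei were filtered on genes and mitochondrial share and reads were down-sampled. Whether counting used strand is not given in the sources used here. The authors deposited 1 matrix per mouse with values on a natural log scale, ln(1 + 10000 × UMI / total UMI). UMIs were recovered from the steps of these values, at least 99.9995% of them whole within 0.1. The deposited matrices hold fewer nuclei than the study counts.

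Nuclei were clustered with scanpy 1.11.5 (2000 variable genes without chaperones, 30 components, 20 neighbours, Leiden resolution 0.6) and named by at least 3 markers. Resolution 0.3 was tried first and changed after its clusters, but before gene values, were seen. A cluster of mixed Schwann and mural markers was not used, and smooth muscle cells are not analysed as a type. Of nuclei scoring highest for smooth muscle and pericyte markers, 162 lay in that cluster. Others were typed as fibroblasts (1061), endothelial cells (549), myeloid cells (239) and cardiomyocytes (142) and were summed with them. Scrublet marked 85 nuclei (0.173%), taken not to have worked, and these were removed. UMIs were summed per mouse and type, scaled by TMM (own code) and tested as log2(CPM + 1) with limma 3.58.1 (trend, robust), all 3 groups sharing 1 spread, over genes that reached the CPM of 10 UMIs in the median library in 3 samples and 15 UMIs in all. The choice of limma was made because the deposited values are logs, although the sums tested were of recovered UMIs. A count model was not run. A fold change on this scale understates that of low genes. Order of types, cluster levels and marker sums used CPM without TMM. The code was tested on simulated data.

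Each group's mice are separate animals, and intervals cover the spread between them. The 10 genes and the lists were chosen with earlier results of these data known. Of the other lists, at most the 4 called genes with the largest change were named, and for likeness the 2 nearest genes. Alternatives covered scaling, pseudocount, filter, samples fitted, replicate block, doublets, typing, weights and leaving out each mouse. Python 3.11.15, R 4.3.3 and GENCODE vM21 were used.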

Additional observations from a re-analysis of the deposited data

Results flagged for a closer look

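The effect of I/R on Hsph1, the HSP110 exchange factor, differed between cell types by a direct test. It was -0.48 on the log2(CPM + 1) scale in cardiomyocytes and 1.26 in myeloid cells, and the effect in cardiomyocytes minus that in myeloid cells was -1.74 (limma, adjusted p = 0.0153). Cardiomyocytes held 13.2, 5.20 and 6.26 CPM in sham mice and 6.48, 3.43 and 6.07 in I/R mice. The sham level in myeloid cells rests on few UMIs, 9 to 13 per mouse. Over 24 alternatives the difference ranged from -2.10 to -1.36 and was called in 21.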

How the results depend on the processing

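Over 24 alternatives, no test of the 10 genes reversed a call. Of 3503 tests, 3433 kept their side of the threshold, 57 lost a call and 13 gained one, and 191 turned sign without being called in either setting. Most were uncalled as reported and had no call to lose. For I/R against sham, Hspb7 lost its call in 12 of 24 alternatives in fibroblasts, 7 of 24 in myeloid cells and 14 of 20 over all nuclei. In myeloid cells Hsp90aa1 lost it in 1 of 24 and Hsph1 in 9 of 24. Hsp90aa1 in SBP against sham lost it in 11 of 24, and the Hsph1 difference between types in 3 of 24. In I/R against sham, the count of called genes in fibroblasts went from 1 to 0 with library size alone, the replicate block, marker-score types, the highest-scoring nuclei removed, equal weight per nucleus and 1 cluster per type, and was 0 to 1 with each mouse left out. In myeloid cells it went from 3 to 0 with 1 cluster per type, and was 1 to 3 with each mouse left out. There Hsph1 was also lost with no filter (adjusted p = 0.0565), only the 2 groups compared (0.0667) and the replicate block (0.0670), and Hspb7 with marker-score types (0.112) and equal weight (0.0799). Over all nuclei it went from 1 to 0 with median-of-ratios factors, library size alone, no filter, only the 2 groups compared, the replicate block and equal weight, and was 0 to 3 with each mouse left out, 3 without I/R replicate 3 (Hspa1b 1.06, Hsp90aa1 0.63 and Hspb7) and 1 without I/R replicate 1 (Hspb1 1.01, while Hspb7 was lost). In cardiomyocytes it was 0 to 1 with each mouse left out, 1 without I/R replicate 1. Among all genes, those called there went from 106 to 812 without that mouse. Over all nuclei they went from 1823 to 2563 without I/R replicate 3.

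In SBP against sham, with only the 2 groups compared, the count went from 0 to 1 in cardiomyocytes (Hspb1), endothelial cells (Hspd1) and all nuclei (Hspa1b). Hspa1b passed the filter over all nuclei only through I/R and SBP mice. In myeloid cells the count went from 1 to 0 with no filter, the replicate block, marker scores, equal weight and 1 cluster per type. With each mouse left out it was 0 to 1 in cardiomyocytes, myeloid cells and all nuclei. Hsph1 in myeloid cells was called in this comparison without sham replicate 1 (1.24, adjusted p = 0.0243). For the difference between cardiomyocytes and myeloid cells the count went from 1 to 0 with 1 cluster per type and was 0 to 3 with each mouse left out. Cardiomyocytes had the highest share of nuclei for 4 genes thinned and 7 not thinned. The causes were not tested.

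The labels tie the replicate numbers to no shared animal or batch, and deviations of same-numbered mice correlated between -0.40 and 0.30. All 3 pairs exceeded 0.1 between sham and SBP mice in fibroblasts (0.127, 0.134 and 0.123), where 0 of the 10 genes were called with and without the replicate block. The block lost 4 of the called results. Resolution 0.3, 1 cluster per type and leaving out the nucleus richest in Hspa1a were added after the data were seen. The first changed no call of the 10 genes. Counts over all genes moved more than 1.5 times: in I/R against sham they ranged from 18 to 812 in cardiomyocytes (106 as reported), 69 to 601 in endothelial cells (390), 436 to 1703 in fibroblasts (1520), 173 to 1962 in myeloid cells (1917) and 417 to 2563 over all nuclei (1823). In SBP against I/R they reached at most 1, 4, 1, 10 and 0 in the same order. In SBP against sham they ranged from 0 to 411 (18), 49 to 575 (267), 90 to 1123 (795), 159 to 1801 (1379) and 43 to 1641 (538). For differences from cardiomyocytes they ranged from 0 to 184 (9) against endothelial cells, 44 to 862 (480) against fibroblasts and 13 to 983 (856) against myeloid cells. Hspa1a and Hspa1b had few UMIs and were below the filter in 3 of the 4 types.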

Other observations

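T cell-like and B cell-like nuclei were few, with 772 and 335 nuclei in all, and entered no comparison. In T cell-like nuclei, Hspa8 was 115 ± 18.8 CPM in sham mice, 197 ± 45.6 in I/R mice and 149 ± 50.8 in SBP mice (SD, n = 3), from 37, 61 and 44 UMIs. Hsp90aa1 was 68.1 ± 3.95 CPM in sham mice, 30.1 ± 36.1 in I/R mice and 24.4 ± 24.3 in SBP mice, from 22, 17 and 9 UMIs. B cell-like nuclei held 5 Hspa1a UMIs in sham mice and 0 in I/R and SBP mice. All 5 lay in 1 nucleus of sham replicate 3, which held 9 UMIs of Hspa1a and Hspa1b together among 1463.

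Endothelial nuclei of a cluster led by Tmem108, Nrg1 and Npr3 held more Hsph1 than those of the Mcf2l-led cluster. The means were 56.4 ± 19.7 and 17.5 CPM in sham mice, 41.5 and 15.4 in I/R mice and 38.6 and 11.4 in SBP mice, given without a test because the clusters were made from these nuclei.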
